A study of Mus musculus with 12 samples.

Results

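The costimulatory receptors and ligands examined here were 10 genes, Cd28, Icos, Cd27, Cd40lg, Tnfrsf4, Tnfrsf9, Tnfrsf18, Tnfrsf1b, Tnfrsf25, and Tnfsf8. They were taken by symbol from the table of counts, which lists 25078 genes, and were compared over donor genotype in liver CD4+ and CD8+ T cells. The study asked how STAT3 and PD-1 in donor T cells shape graft-versus-host disease (GVHD), the attack of donor T cells on host tissue after hematopoietic cell transplantation (HCT). Lethally irradiated WT BALB/c mice received donor T cells and T cell-depleted marrow from C57BL/6 mice, and the liver was taken on day 6 after HCT. RNA-Seq covered 12 libraries, with 2 for each of 3 donor genotypes in each T cell subset. The age of the animals is not given in the sources used here.

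The genotypes belong to the transplanted T cells. WT T cells came from unmodified C57BL/6 donors. STAT3ko T cells came from donors with floxed Stat3 and Cre driven by the CD4 promoter, which acts during T cell development in both CD4+ and CD8+ lineages. STAT3ko PD-1ko T cells carried the same Stat3 deletion together with a germline PD-1 deletion. No group lacked PD-1 alone, so the part of PD-1 loss in the last genotype can be read only against STAT3ko. The marrow of all groups came from WT C57BL/6 donors. Sorting separated CD4+ from CD8+ donor T cells, and each library holds cells of 3 recipients, so that a replicate stands for a pool of mice. The library labels also carry growth and library protocols for a fat-forming cell line, which cannot describe sorted T cells and were not used. Totals ran from 21676125 to 24551477 counts per library, and the 10 genes had from 10 (Tnfrsf25) to 31970 (Icos) counts in a library.

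A T cell needs a costimulatory signal beside its antigen receptor to divide, survive, and make cytokines in full. CD28 and ICOS are receptors of the immunoglobulin family, bind B7 family ligands, and signal through PI3K and adaptor proteins. CD27, OX40 (Tnfrsf4), 4-1BB (Tnfrsf9), GITR (Tnfrsf18), TNFR2 (Tnfrsf1b), and DR3 (Tnfrsf25) belong to the TNF receptor family and signal through TRAF proteins or, for DR3, a death domain, to NF-kB. CD40 ligand (Cd40lg) and CD30 ligand (Tnfsf8) are TNF family ligands that T cells themselves display. Many of these molecules are induced by activation, and several are targets in experimental GVHD.

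The targeted genes were examined first. Stat3 had 369 and 467 TMM-normalized CPM, which are counts scaled to a common library size, in the CD4+ WT libraries, 140 and 164 in STAT3ko, and 157 and 219 in STAT3ko PD-1ko. In CD8+ T cells it had 397 and 384 CPM in WT, 149 and 136 in STAT3ko, and 154 and 235 in STAT3ko PD-1ko. Both STAT3-deficient genotypes thus lay below WT without overlap in each subset. The log2 fold change of STAT3ko against WT was -1.46 in CD4+ (SE 0.22, adjusted p = 0.055) and also -1.46 in CD8+ T cells (SE 0.20, adjusted p = 0.108 in edgeR's quasi-likelihood test), which missed the threshold of 0.05, while STAT3ko PD-1ko against WT passed it (2.19-fold and 1.99-fold lower). Counts per gene do not show the deleted exons alone. Pdcd1, which encodes PD-1, had 55.1 and 26.0 CPM in CD4+ and 93.6 and 65.6 CPM in CD8+ STAT3ko PD-1ko libraries, against 235 CPM or more in every other library. The subset labels were also met, since Cd4 reached at most 2.74 CPM in CD8+ libraries and Cd8a at most 5.64 CPM in CD4+ libraries. Cd3e, a chain of the T cell receptor complex, had 533 to 736 CPM in all 12 libraries.

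Tnfrsf25 and Tnfsf8 showed the largest changes among the 10 genes for STAT3ko PD-1ko against WT, and both fell in either subset. Icos also fell in both subsets as compared with WT. Tnfrsf9 rose in CD4+ T cells and Tnfrsf4 rose in CD8+ T cells. Cd40lg fell in CD4+ T cells, and Cd27 (against STAT3ko) and Tnfrsf1b (against WT) fell in CD8+ T cells. None of the 10 genes passed the test for STAT3ko against WT in the fit without a block. Fewer cells of a kind and less RNA per cell cannot be told apart in these bulk libraries.

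**Figure D1:**
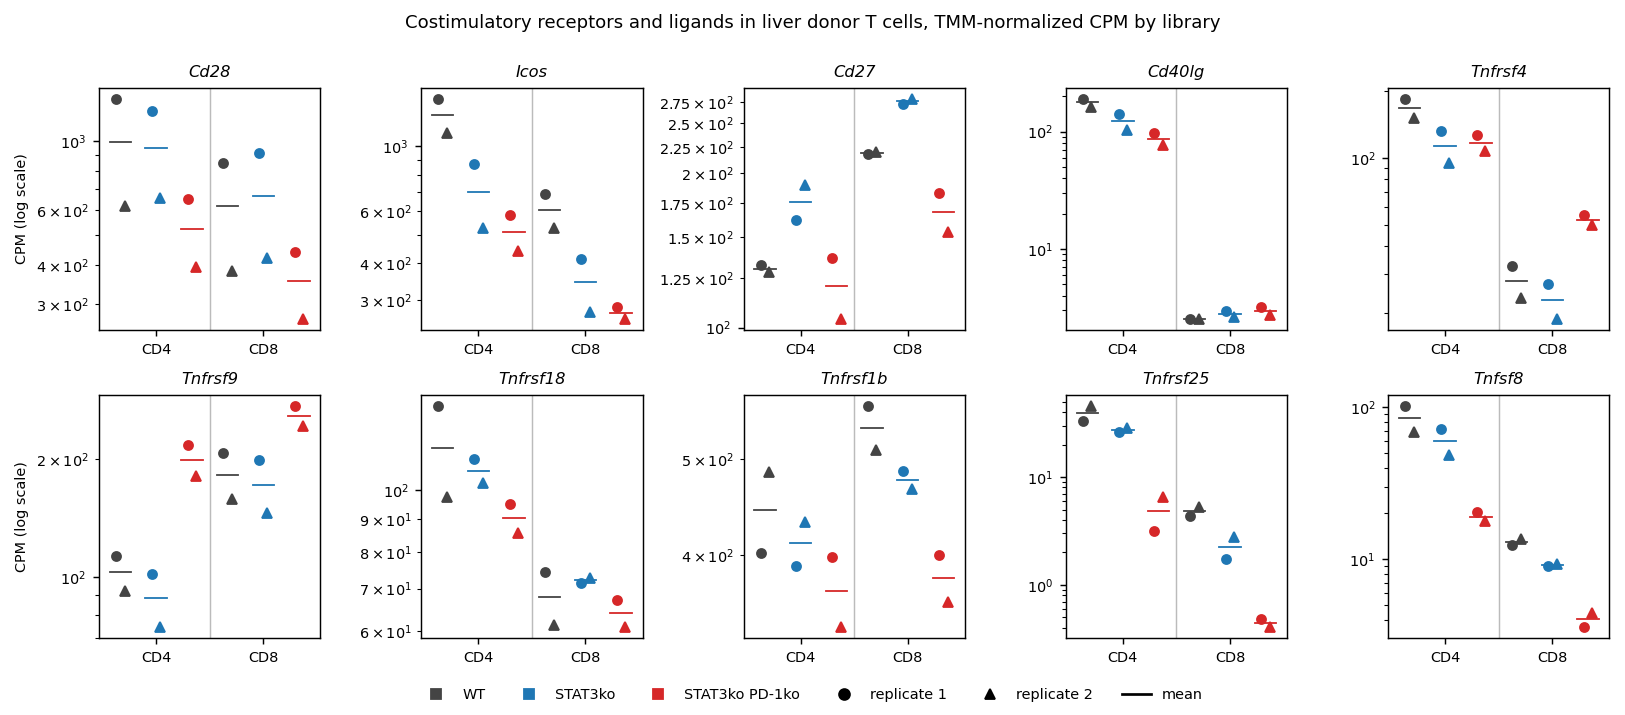
Levels of the 10 genes in TMM-normalized CPM (log scale, a separate range for each gene), with a point for each library, circles for replicate 1, triangles for replicate 2, and a line at the mean of the 2 libraries. Tnfrsf25 and Tnfsf8 were lowest in the STAT3ko PD-1ko libraries of each subset, and Cd40lg was between 2.52 and 3.23 CPM in all CD8+ libraries.

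The upstream sequences of Tnfrsf25, Tnfsf8, Tnfrsf4, and Tnfrsf9, which changed, are shown first, with those of Tnfrsf18 and Tnfrsf1b, whose windows held a STAT-type motif. Tnfrsf1b also changed, and so did Cd27, whose window is not shown. RefSeq (GRCm38.p6, the assembly of mm10) gave windows for 7 of the 10 genes, and Cd28, Icos, and Cd40lg were not matched. Each window holds the 250 bases before the transcription start, read 5′ to 3′ on the strand of the gene. Capitals mark TTCNNNGAA, the palindromic core that STAT proteins bind, searched on both strands. For Tnfrsf9, RefSeq lists a second start, and the window of its first start is shown.
Tnfrsf25, chr4:152115684-152115933, plus strand: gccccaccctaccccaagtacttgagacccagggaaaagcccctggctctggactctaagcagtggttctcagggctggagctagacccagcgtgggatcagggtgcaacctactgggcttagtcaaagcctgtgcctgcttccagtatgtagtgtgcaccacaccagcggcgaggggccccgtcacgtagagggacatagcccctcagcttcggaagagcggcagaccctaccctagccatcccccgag
Tnfsf8, chr4:63861285-63861534, minus strand: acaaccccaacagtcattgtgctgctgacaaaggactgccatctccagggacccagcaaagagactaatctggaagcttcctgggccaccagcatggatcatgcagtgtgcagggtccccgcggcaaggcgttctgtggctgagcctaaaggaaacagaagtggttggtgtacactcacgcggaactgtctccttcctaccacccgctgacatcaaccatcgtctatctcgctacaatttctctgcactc
Tnfrsf4, chr4:156013445-156013694, plus strand: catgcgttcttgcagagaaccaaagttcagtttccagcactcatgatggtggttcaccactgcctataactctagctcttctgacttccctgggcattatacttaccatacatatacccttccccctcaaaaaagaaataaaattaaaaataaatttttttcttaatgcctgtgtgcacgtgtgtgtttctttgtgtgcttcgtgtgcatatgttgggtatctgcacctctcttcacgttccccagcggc
Tnfrsf9, chr4:150919905-150920154, plus strand: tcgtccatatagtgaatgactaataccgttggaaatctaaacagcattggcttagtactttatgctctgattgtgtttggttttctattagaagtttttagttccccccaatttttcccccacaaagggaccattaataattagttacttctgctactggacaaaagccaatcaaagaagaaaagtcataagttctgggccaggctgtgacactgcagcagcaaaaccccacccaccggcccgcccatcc
Tnfrsf18, chr4:156026072-156026321, plus strand: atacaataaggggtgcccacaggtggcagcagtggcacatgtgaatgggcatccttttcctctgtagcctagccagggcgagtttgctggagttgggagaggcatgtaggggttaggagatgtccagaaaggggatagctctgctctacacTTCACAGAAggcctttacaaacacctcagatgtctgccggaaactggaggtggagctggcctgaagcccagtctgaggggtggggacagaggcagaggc
Tnfrsf1b, chr4:145246871-145247120, minus strand: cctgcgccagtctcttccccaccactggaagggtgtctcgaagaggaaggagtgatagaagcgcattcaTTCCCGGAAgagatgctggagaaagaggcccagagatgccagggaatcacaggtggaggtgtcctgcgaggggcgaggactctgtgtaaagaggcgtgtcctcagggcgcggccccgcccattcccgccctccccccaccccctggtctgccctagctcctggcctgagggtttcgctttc

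The TTCNNNGAA letters stood at position -99 of Tnfrsf18 and at -181 of Tnfrsf1b, counted from the start, and were absent from the windows shown for Tnfrsf25, Tnfsf8, Tnfrsf4, and Tnfrsf9. The window of Cd27, which is not shown, did not hold them either. Second starts of Tnfrsf9 and Tnfrsf25, which are not shown, held the motif at -136 and -16. In all, 4 of the 9 windows of these genes held it, against 2306 of 32851 windows of all genes (7.02%). TGANTCA, the core bound by AP-1, was searched likewise on both strands and overlapped no TTCNNNGAA in these windows. It was present in 1 of the 9 windows, that of the second start of Tnfrsf9 (-15), and in 6.75% of all windows. A match is a description of letters and not of binding, which was not measured here.

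The first comparison asked what the loss of STAT3 alone did. In CD4+ T cells, 0 of the 10 genes passed the quasi-likelihood test of edgeR for STAT3ko against WT, with p-values adjusted by Benjamini-Hochberg over all genes and a threshold of 0.05. Of all 11959 genes tested in this comparison, 40 passed (0.334%), and 1259 had an unadjusted p under 0.05. The unadjusted p was under 0.05 for 4 of the 10 genes, and DESeq2 also called 0 of them, against 2.27% of all genes. Icos had the largest difference, a log2 fold change of -0.87 (SE 0.26, adjusted p = 0.268 in edgeR). Its libraries did not overlap, with 1454 and 1107 CPM in WT and 873 and 529 in STAT3ko. With the replicate number as a block it was the 1 gene of the 10 called (adjusted p = 0.0147 in edgeR with the block), where 2.53% of all genes were. Tnfrsf4, Cd40lg, and Tnfrsf25 libraries were likewise all lower in STAT3ko, and those of Cd27, the receptor of CD70, were all higher, at 162 and 190 against 132 and 129 CPM. Groups without overlap were thus seen for 5 of the 10 genes, and for 38.2% of all genes tested.

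In STAT3ko PD-1ko CD4+ T cells, 5 of the 10 genes differed from WT, where 12.9% of all genes tested did. Tnfrsf9 was higher, and Icos, Cd40lg, Tnfrsf25, and Tnfsf8 were lower. Among all genes, 7.21% were called higher and 5.65% lower. The median log2 fold change of the 10 genes was -0.70, beside -0.01 over all genes tested, and 9 of the 10 values were negative. The groups did not overlap for 8 of the 10 genes, nor for 59.2% of all genes. This is a description of the chosen genes and not a test of them as a group.

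Tnfrsf25, which encodes DR3, the receptor of TL1A, fell the most. It had 33.1 and 45.2 CPM in WT CD4+ T cells, 26.0 and 28.3 in STAT3ko, and 3.16 and 6.47 in STAT3ko PD-1ko. The STAT3ko PD-1ko libraries lay far below all others, with no overlap, although they also differed by 2.05-fold between themselves. The log2 fold change against WT was -2.99 (SE 0.35, adjusted p = 0.00446 in edgeR's quasi-likelihood test), a 7.97-fold fall. Against STAT3ko it was -2.47 (SE 0.34, adjusted p = 0.0098 in edgeR).

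Tnfsf8, the ligand of CD30, had 101 and 69.1 CPM in WT, 71.6 and 48.2 in STAT3ko, and 20.4 and 17.8 in STAT3ko PD-1ko CD4+ T cells. Its WT and STAT3ko libraries overlapped, and both STAT3ko PD-1ko libraries were below them. It fell by 2.13 on the log2 scale against WT (SE 0.26, adjusted p = 0.00483) and by 1.63 against STAT3ko (SE 0.25, adjusted p = 0.0128, both in edgeR). Cd40lg, through which helper T cells engage CD40 on antigen-presenting cells, had 192 and 164 CPM in WT, 142 and 104 in STAT3ko, and 97.3 and 76.6 in STAT3ko PD-1ko. Its 3 groups followed each other without overlap, and the fall of 1.01 against WT passed the test (SE 0.20, adjusted p = 0.02 in edgeR). Against STAT3ko its log2 fold change was -0.48 (SE 0.20, adjusted p = 0.159 in edgeR). With the replicate number as a block, this fall of Cd40lg was called (adjusted p = 0.0224 in edgeR with the block).

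Icos, which supports helper and follicular T cell responses, fell by 1.30 against WT (SE 0.26, adjusted p = 0.0204 in edgeR). Its 583 and 440 CPM in STAT3ko PD-1ko overlapped the 873 and 529 CPM of STAT3ko, and that log2 difference was -0.44 (SE 0.26, adjusted p = 0.301). The Icos level was thus below WT in both STAT3-deficient genotypes, with the test passed for STAT3ko PD-1ko. In this fit, which holds no block, the difference between the STAT3-deficient genotypes missed the threshold, and with the replicate number as a block it passed (adjusted p = 0.042 in edgeR).

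Tnfrsf9, the receptor of 4-1BB ligand, went the other way. It had 113 and 92.2 CPM in WT, 102 and 74.6 in STAT3ko, and 217 and 181 in STAT3ko PD-1ko CD4+ T cells. The last 2 libraries were above the other 4, which overlapped. The rise was 1.97-fold against WT (log2 0.98, SE 0.20, adjusted p = 0.021) and 2.28-fold against STAT3ko (log2 1.19, SE 0.20, adjusted p = 0.0148, both in edgeR).

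The other genes did not pass the test in CD4+ T cells in the fit without a block. Tnfrsf4, the receptor of OX40 ligand, had 185 and 151 CPM in WT, 133 and 94.5 in STAT3ko, and 127 and 108 in STAT3ko PD-1ko, so that both STAT3-deficient groups lay below WT and overlapped each other. Its log2 fold change in STAT3ko PD-1ko was -0.50 against WT (SE 0.20, adjusted p = 0.15) and 0.07 against STAT3ko (SE 0.20, adjusted p = 0.857 in edgeR). With the replicate number as a block, Tnfrsf4 was called lower against WT (adjusted p = 0.0191 in edgeR with the block). Cd27 had 137 and 104 CPM in STAT3ko PD-1ko, around the WT values and below those of STAT3ko. That block was among 3 of 16 alternatives that called Cd27 lower against STAT3ko. Tnfrsf18 and Tnfrsf1b, both abundant on regulatory T cells, changed by -0.34 (SE 0.18) and -0.25 (SE 0.16) on the log2 scale against WT.

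Against STAT3ko, 3 of the 10 genes passed the test in STAT3ko PD-1ko CD4+ T cells, namely Tnfrsf9 (higher) and Tnfrsf25 and Tnfsf8 (lower), where 11.1% of all genes did (6.05% higher and 5.03% lower). Groups did not overlap for 7 of the 10 genes, nor for 59.2% of all genes. This comparison shares its STAT3ko PD-1ko libraries with the comparison against WT. Calls in CD4+ T cells changed without single libraries, among all genes as well. Without STAT3ko PD-1ko replicate 1 or without replicate 2, Tnfrsf25 was the 1 gene of the 10 called against WT, where 1.2% and 0.508% of all genes were, and 0 were called against STAT3ko, where at most 0.54% of all genes were. Without WT replicate 1, the calls against WT were Tnfrsf9, Tnfrsf25, and Tnfsf8, and without WT replicate 2 Tnfrsf9 was lost, where 5.51% and 4.7% of all genes were called.

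**Figure D2:**
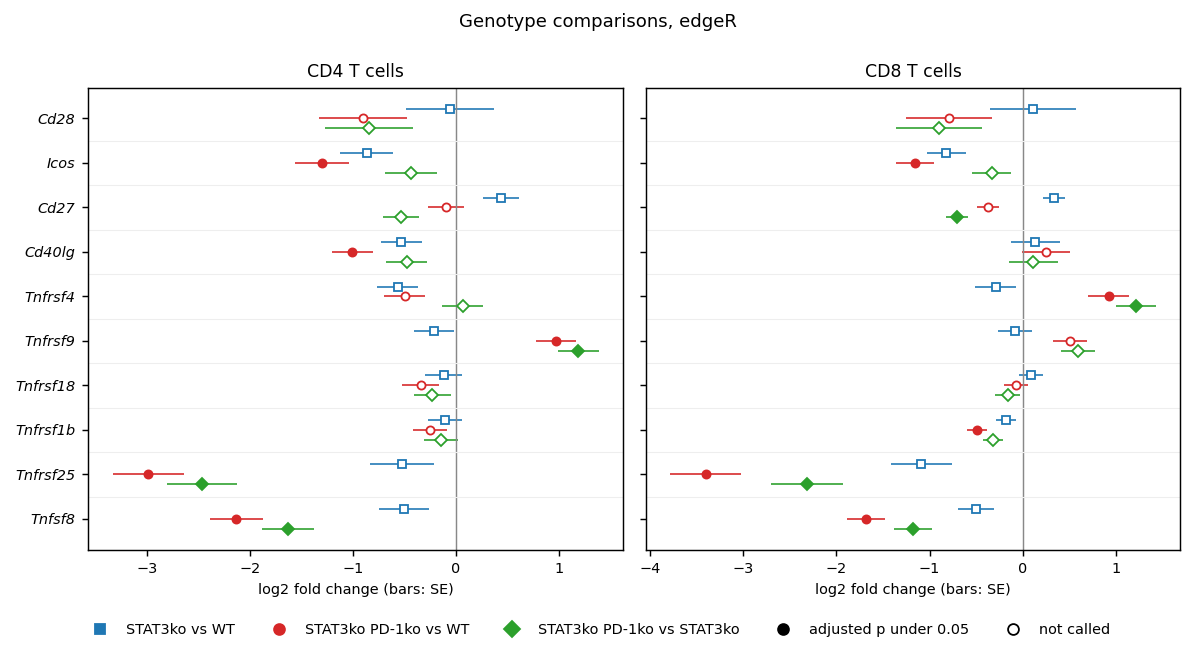
Log2 fold changes of the 10 genes in 3 genotype comparisons in CD4+ (left) and CD8+ T cells (right). Points are edgeR estimates from 2 libraries a group, bars are standard errors, and filled points have an adjusted p under 0.05. Both comparisons of STAT3ko PD-1ko put Tnfrsf25 and Tnfsf8 left of 0 in each subset, and no STAT3ko against WT point is filled.

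STAT3ko CD8+ T cells likewise gave 0 of the 10 genes against WT in edgeR's quasi-likelihood test, where 7 of all 12002 genes tested passed (0.0583%). At an unadjusted p under 0.05 there were 1315 genes in all, 4 of the 10 among them. DESeq2 called 1 of the 10, Icos, and 1.82% of all genes, and edgeR with the replicate number as a block called 0 of the 10 and 0.075% of all genes. Icos had 685 and 528 CPM in WT and 415 and 274 in STAT3ko CD8+ T cells, without overlap, a log2 fold change of -0.82 (SE 0.21, adjusted p = 0.277 in edgeR). Tnfrsf25 had 4.36 and 5.23 CPM in WT and 1.73 and 2.78 in STAT3ko, a log2 fold change of -1.09 (SE 0.32, adjusted p = 0.318). Groups that did not overlap were found for 6 of the 10 genes and for 43.6% of all genes in this comparison.

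In STAT3ko PD-1ko CD8+ T cells, 5 of the 10 genes differed from WT, where 17.2% of all genes tested did. Tnfrsf4 was higher, and Icos, Tnfrsf1b, Tnfrsf25, and Tnfsf8 were lower. Over all genes, 9.01% were called higher and 8.21% lower. The median log2 fold change of the 10 genes was -0.43, and 7 of 10 values were negative. Groups did not overlap for 8 of the 10 genes, nor for 59.7% of all genes.

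Tnfrsf25 had 0.486 and 0.408 CPM in STAT3ko PD-1ko CD8+ T cells, from 11 and 10 counts. In WT it had 98 and 131 counts and in STAT3ko 40 and 68, so that the 3 groups were stepped without overlap. The fall against WT was 3.40 on the log2 scale (SE 0.38, adjusted p = 0.0044 in edgeR), and against STAT3ko it was 2.32 (SE 0.39, adjusted p = 0.0127). At these counts the size of the fall depends on the fit, with log2 fold changes of -3.54 to -1.51 against WT over the alternatives. The smallest fall came from log2(RPKM + 1), which understates changes of low genes.

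Tnfsf8 had 12.5 and 13.5 CPM in WT, 9.02 and 9.32 in STAT3ko, and 3.58 and 4.45 in STAT3ko PD-1ko CD8+ T cells. As with Tnfrsf25, the groups were stepped without overlap. It fell by 1.68 against WT (SE 0.21, adjusted p = 0.00511) and by 1.18 against STAT3ko (SE 0.21, adjusted p = 0.0138, both in edgeR). Icos fell to 283 and 258 CPM, a log2 fold change of -1.16 against WT (SE 0.21, adjusted p = 0.0139) and of -0.33 against STAT3ko (SE 0.21, adjusted p = 0.29).

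Tnfrsf4 was the 1 gene of the 10 called higher in CD8+ T cells in the fit without a block. It had 32.4 and 23.4 CPM in WT, 26.9 and 18.7 in STAT3ko, and 55.1 and 49.7 in STAT3ko PD-1ko. Both STAT3ko PD-1ko libraries were above the other 4, whose groups overlapped. The log2 fold change was 0.92 against WT (SE 0.22, adjusted p = 0.029) and 1.21 against STAT3ko (SE 0.22, adjusted p = 0.0149, both in edgeR's quasi-likelihood test). Tnfrsf9 was also above both other groups in CD8+ T cells, at 272 and 242 CPM against 207 and 158 in WT and 198 and 146 in STAT3ko. Its log2 fold changes of 0.51 (SE 0.18, adjusted p = 0.101) and 0.59 (SE 0.19, adjusted p = 0.0663 in edgeR) missed the threshold. Several alternatives, the replicate block among them, called Tnfrsf9 higher against STAT3ko.

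Cd27 was highest in STAT3ko and lowest in STAT3ko PD-1ko CD8+ T cells, with 218 and 220 CPM in WT, 273 and 280 in STAT3ko, and 183 and 153 in STAT3ko PD-1ko. The fall from STAT3ko to STAT3ko PD-1ko was 0.70 on the log2 scale (SE 0.12, adjusted p = 0.0129 in edgeR). Tnfrsf1b had 566 and 511 CPM in WT, 486 and 467 in STAT3ko, and 400 and 358 in STAT3ko PD-1ko, and its log2 fold change against WT was -0.50 (SE 0.11, adjusted p = 0.0227). Cd40lg stayed near 3 CPM in every CD8+ library, and Tnfrsf18 lay between 60.9 and 74.5 CPM with overlapping groups against WT.

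Against STAT3ko, 4 of the 10 genes passed the test in STAT3ko PD-1ko CD8+ T cells, where 16.8% of all genes did (8.76% higher and 8.05% lower). Tnfrsf4 was higher, and Cd27, Tnfrsf25, and Tnfsf8 were lower. Groups did not overlap for 7 of the 10 genes, nor for 63.1% of all genes. Without STAT3ko PD-1ko replicate 2, 1 of the 10 genes was called against WT (Tnfsf8) and 0 against STAT3ko, where 0.903% and 0.0163% of all genes were. Without STAT3ko PD-1ko replicate 1, Tnfrsf25 and Tnfsf8 were called against WT, and Cd27 and Tnfsf8 against STAT3ko, where 6.79% and 8.4% of all genes were. Without WT replicate 2 the calls against WT were Icos, Tnfrsf25, and Tnfsf8, and without WT replicate 1 Tnfrsf1b was lost, where 5.49% and 8.95% of all genes were called. Without STAT3ko replicate 2 there were 0 calls among the 10 genes against STAT3ko, where 3.75% of all genes were called, and Tnfrsf9 was added without STAT3ko replicate 1 or WT replicate 1.

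Cd28, which supplies the first costimulatory signal of a naive T cell, was called in no comparison of genotypes in the fit without a block. In CD4+ T cells it had 1367 and 620 CPM in WT, 1245 and 657 in STAT3ko, and 651 and 394 in STAT3ko PD-1ko. Its CD8+ levels were 852 and 383 CPM in WT, 914 and 420 in STAT3ko, and 441 and 268 in STAT3ko PD-1ko. In each group replicate 2 was the lower library, at 0.45 to 0.607 of replicate 1, with log2 ratios of -1.15 to -0.72, as large as the differences between genotypes. The log2 fold changes of STAT3ko PD-1ko against WT were -0.90 (SE 0.43, adjusted p = 0.216) in CD4+ and -0.79 (SE 0.46, adjusted p = 0.278 in edgeR) in CD8+ T cells. Within each replicate number, STAT3ko PD-1ko was below WT and STAT3ko in both subsets, with log2 differences of -1.07 and -0.65 (CD4+) and -0.95 and -0.52 (CD8+) against WT. With the replicate number as a block, Cd28 was called lower in STAT3ko PD-1ko against WT (adjusted p = 0.00317 in CD4+ and 0.0118 in CD8+) and against STAT3ko (adjusted p = 0.00476 and 0.00886, all in edgeR with the block). That block raised the calls among the 10 genes to 7 in each of these 4 comparisons, where it called 26% of all genes in either CD4+ comparison, and 24.7% (against WT) and 24.4% (against STAT3ko) in CD8+ T cells. Icos, Cd40lg, Tnfrsf4, and Tnfrsf9 were also lower in replicate 2 of all 6 groups, while Tnfrsf18, Tnfrsf1b, Tnfrsf25, Tnfsf8, and Cd27 went in both directions. The study combined replicate experiments, and whether the replicate numbers mark them is not given in the sources used here, although the library labels number all libraries of a replicate in 1 consecutive series.

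**Figure D3:**
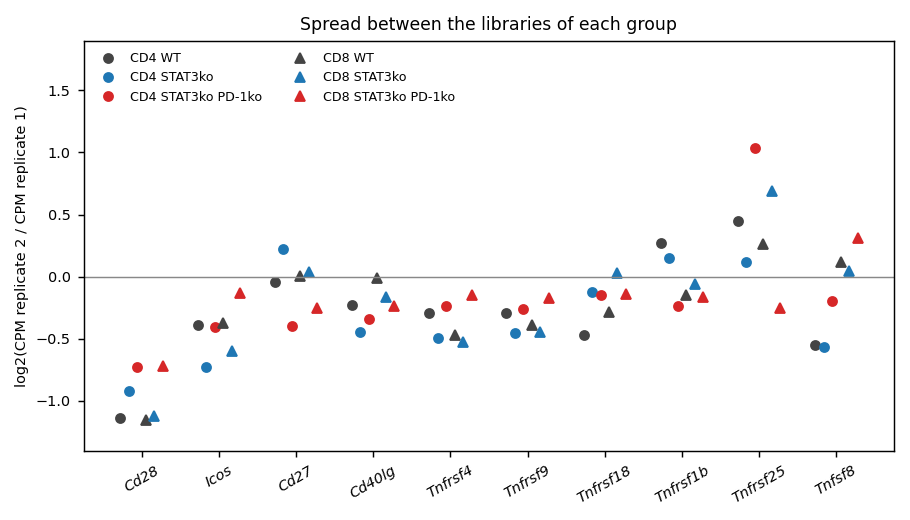
Log2 ratio of replicate 2 to replicate 1 in CPM for each of the 10 genes (horizontal axis) in the 6 groups, circles for CD4+ and triangles for CD8+ T cells. All 6 values of Cd28 lie between -1.15 and -0.72, and those of Tnfrsf25 reach 1.04.

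The subsets were compared next, within each genotype and in a fit of all 12 libraries. Per length of transcript, the order of levels differed between subsets. By mean RPKM (CPM per kilobase of exon) over the 6 CD4+ libraries, Icos (255) and Cd28 (191) led and Tnfrsf25 (12.5) was last, with Tnfrsf4 (115), Cd40lg (103), Tnfrsf18 (102), Cd27 (90.3), Tnfrsf1b (83.0), Tnfrsf9 (58.5), and Tnfsf8 (24.6) between. Over the 6 CD8+ libraries, Cd27 (140), Cd28 (127), and Icos (125) led, and Tnfsf8 (3.91), Cd40lg (2.21), and Tnfrsf25 (1.31) were last. The leading gene differed by genotype. In CD4+ T cells Icos was first by mean RPKM in WT (393) and STAT3ko PD-1ko (157), and Cd28 (220.3) lay just above Icos (215) in STAT3ko. In CD8+ T cells Icos (186) was first in WT, Cd27 (175) in STAT3ko, and Tnfrsf9 (116) in STAT3ko PD-1ko. Over the libraries of all genotypes, the ranges of every pair of neighbours overlapped in CD4+ T cells. In CD8+ T cells all neighbours overlapped apart from Tnfrsf4 (16.2 to 47.7), which lay below Tnfrsf18 (59.1 to 72.3) and above Tnfsf8 (1.61 to 6.06).

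In WT, 8 of the 10 genes differed between CD8+ and CD4+ T cells in edgeR's quasi-likelihood test, where 10.5% of all 12334 genes tested did (4.91% higher and 5.59% lower in CD8+ T cells). Cd40lg was 70.2-fold lower in CD8+ T cells (log2 -6.13, SE 0.23, adjusted p = 4.93e-07). Tnfrsf25 was 8.15-fold, Tnfsf8 6.55-fold, and Tnfrsf4 6.04-fold lower, and Icos and Tnfrsf18 were 2.11-fold and 1.72-fold lower. Cd27 and Tnfrsf9 were higher in CD8+ T cells, by 1.68-fold and 1.77-fold. The ligands borne by T cells and the receptors DR3 and OX40 thus had the largest differences of the 10 genes.

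In STAT3ko, 7 of the 10 genes passed the same test, all of the above without Tnfrsf18, where 9.62% of all genes did (4.81% higher and 4.82% lower). In STAT3ko PD-1ko, 4 genes passed, Cd40lg, Tnfrsf4, Tnfrsf25, and Tnfsf8, where 4.14% of all genes did (1.65% higher and 2.5% lower). The fold of Cd40lg was 44.1 in STAT3ko and 29.2 in STAT3ko PD-1ko, and that of Tnfrsf4 was 4.98 and 2.24. The cells of both subsets came from the same recipients, and with the pool of recipients as a block 9 of the 10 genes were called in each genotype, where 24.3%, 24.9%, and 14.4% of all genes were. Cd28 was then lower in CD8+ T cells of all 3 genotypes, with log2 fold changes of -0.69, -0.55, and -0.56 (adjusted p = 0.000575, 0.00201, and 0.00295 in edgeR with the block). Tnfrsf18 was lower in STAT3ko (adjusted p = 0.00237) and STAT3ko PD-1ko (adjusted p = 0.00713), and in STAT3ko PD-1ko the block also added Icos (adjusted p = 0.000523, lower), Cd27 (adjusted p = 0.00617, higher), and Tnfrsf9 (adjusted p = 0.0135, higher). Tnfrsf1b was called in none, with a log2 fold change of 0.28 at most.

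Without the block, calls of Icos, Cd27, Tnfrsf9, and Tnfrsf18 were lost without single libraries. In WT, 5 genes were called without CD4+ WT replicate 1 (Cd27 with Cd40lg, Tnfrsf4, Tnfrsf25, and Tnfsf8), without CD4+ WT replicate 2 or CD8+ WT replicate 1 (Tnfrsf18 in place of Cd27), or without CD8+ WT replicate 2 (Tnfrsf9 in its place), where 4.83% to 6.48% of all genes were called. In STAT3ko, 4 to 6 genes were called without 1 of its own libraries, with 4 (Cd40lg, Tnfrsf4, Tnfrsf25, and Tnfsf8) without CD8+ STAT3ko replicate 1, where 3.38% to 6.13% of all genes were called. Icos was lost there without either CD8+ STAT3ko PD-1ko library, and Tnfrsf18 was added without either CD4+ WT library. Cd40lg, Tnfrsf25, and Tnfsf8 were called in each genotype without any single library, and Tnfrsf4 was not called in STAT3ko PD-1ko without either library of that genotype in either subset.

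**Figure D4:**
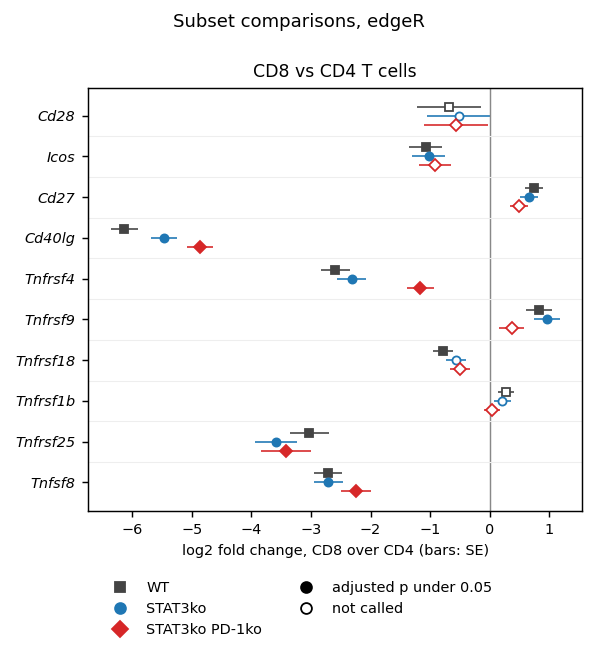
Log2 fold changes of CD8+ over CD4+ T cells for the 10 genes in WT, STAT3ko, and STAT3ko PD-1ko, with standard errors as bars and filled points at an adjusted p under 0.05 in the fit without a block. Cd40lg lies between -6.13 and -4.87, and Tnfrsf4 moves from -2.59 in WT to -1.16 in STAT3ko PD-1ko.

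Whether a genotype effect differed between subsets was tested as an interaction. For STAT3ko PD-1ko against WT, the log2 fold change of Tnfrsf4 was higher in CD8+ than in CD4+ T cells by 1.43 (SE 0.33, adjusted p = 0.252 in edgeR's quasi-likelihood test), and that of Cd40lg by 1.27 (SE 0.28, adjusted p = 0.235). Neither passed the threshold without the block, where 1 of 12334 genes did (0.00811%). With the pool block, a fit chosen after the data were seen, both were called, Tnfrsf4 at 1.44 (adjusted p = 0.00488) and Cd40lg at 1.27 (adjusted p = 0.0249), where 0.681% of all genes were. DESeq2 without a block also called these 2 genes, with 0.608% of all genes. For STAT3ko PD-1ko against STAT3ko, Tnfrsf4 differed by 1.15 (adjusted p = 0.791) without the block, where 0 of all genes were called in edgeR and 443 had an unadjusted p under 0.05, and by 1.16 (adjusted p = 0.026) with it, where 0.178% were called. For STAT3ko against WT, 0 of the 10 genes and 0 of all genes were called in edgeR with or without the block, 228 of all genes had an unadjusted p under 0.05, and DESeq2 called 0 of the 10 and 0.0405% of all genes. No interaction of the other 8 genes was called in edgeR with or without the block, in any comparison.

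The partners of these genes were examined from a list of 12, of which 9 were tested. Against WT, 4 of the 9 rose and 0 fell in STAT3ko PD-1ko CD4+ T cells, and 3 rose and 1 fell in CD8+ T cells. Over all genes, 7.21% rose and 5.65% fell in CD4+, and 9.01% rose and 8.21% fell in CD8+ T cells. The median log2 ratio of the 9 depended on the replicate. In CD8+ T cells it was 0.822 within replicate 1, with 1 of 9 lower, and -0.247 within replicate 2, with 5 of 9 lower. In CD4+ T cells it was 0.759 and 0.13, with 4 of 9 lower in each. Cd70, the ligand of CD27, rose from 1.09 and 1.65 CPM in WT to 10.3 and 9.45 in STAT3ko PD-1ko CD4+ T cells (log2 fold change 2.86, SE 0.29, adjusted p = 0.00366). It also rose in CD8+ T cells, from 0.489 and 0.240 CPM in WT to 2.48 and 3.31 in STAT3ko PD-1ko (7.99-fold, log2 SE 0.44, adjusted p = 0.00827, both in edgeR). These groups did not overlap, but 6 to 11 counts stood behind the CD8+ WT values.

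Tnfrsf8, which encodes CD30, the receptor of the CD30 ligand, rose in the same comparisons in which its ligand Tnfsf8 fell. It had 4.86 and 6.73 CPM in WT, 6.64 and 7.42 in STAT3ko, and 22.5 and 22.8 in STAT3ko PD-1ko CD4+ T cells, a log2 fold change of 1.98 against WT (SE 0.23, adjusted p = 0.00457). The CD8+ log2 fold change was 1.21 (SE 0.19, adjusted p = 0.00954 in edgeR). Tnfsf4, the OX40 ligand, rose in both subsets, by 2.16 (SE 0.55, adjusted p = 0.0425) and 3.06 (SE 0.48, adjusted p = 0.00954) on the log2 scale against WT, from 5 to 23 counts in the WT libraries. Its mean CPM in WT, STAT3ko, and STAT3ko PD-1ko was 0.69, 2.47, and 3.04 in CD4+ T cells. In CD8+ T cells these means were 0.34, 1.75, and 2.84. Cd80, a ligand of CD28, rose by 1.11 in CD4+ T cells (adjusted p = 0.0294), and Cd86, another, fell by 1.12 in CD8+ T cells (adjusted p = 0.00651 in edgeR). Against STAT3ko, Cd70 and Tnfrsf8 rose in both subsets and Cd86 fell in CD8+ T cells. Over all genes in that comparison, 6.05% rose and 5.03% fell in CD4+, and 8.76% rose and 8.05% fell in CD8+ T cells. For STAT3ko against WT, edgeR called none of the 9, where it called 0.334% (CD4+) and 0.0583% (CD8+) of all genes. Cd40, Tnfsf18, and Tnfsf15 were too low to be tested, with Tnfsf18 at 0 counts in every library.

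**Figure D5:**
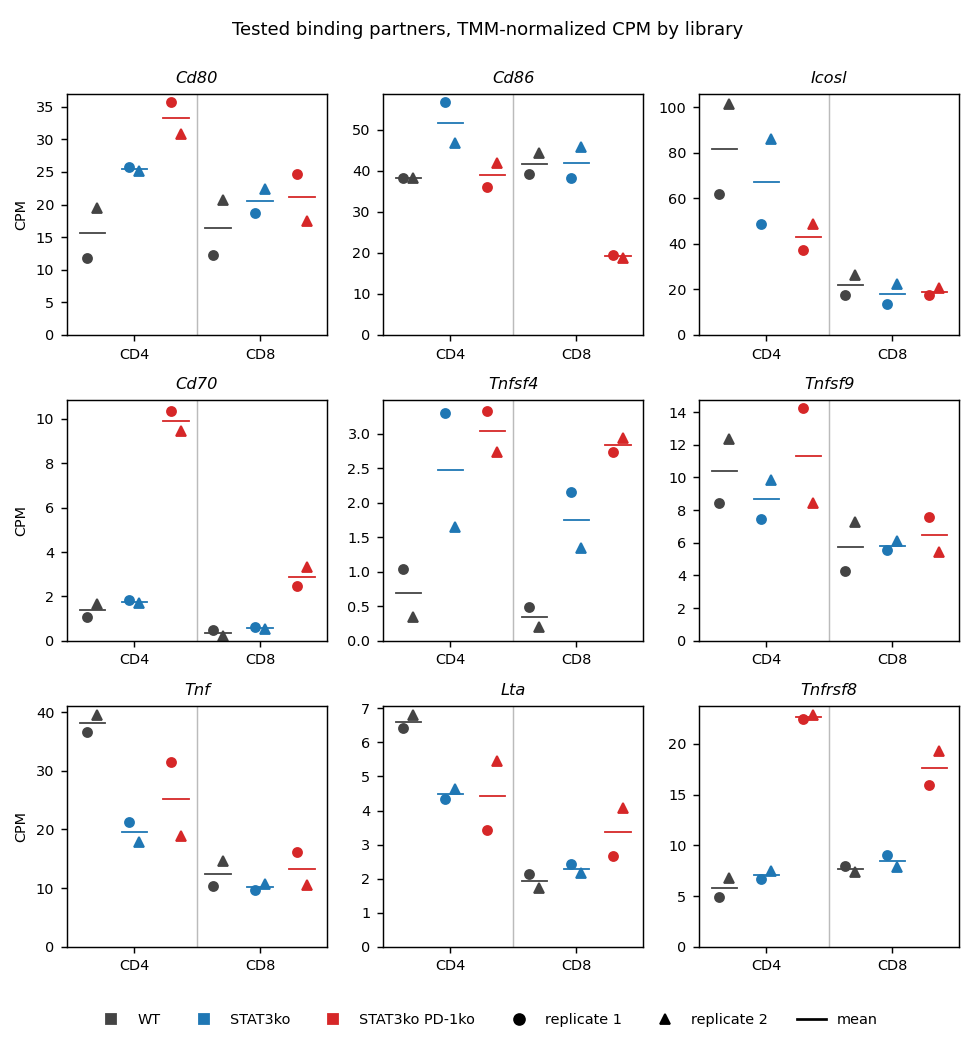
Levels of the 9 tested partners in TMM-normalized CPM (linear scale from 0), with a circle and a triangle for the 2 libraries of each group and a line at their mean. Cd70 and Tnfrsf8 are highest in the STAT3ko PD-1ko libraries of each subset, at 9.45 to 10.3 and 22.5 to 22.8 CPM in CD4+ T cells.

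Genes downstream of the receptors were examined next. Of 17 genes of CD28 and ICOS proximal signaling, 1 rose and 4 fell in STAT3ko PD-1ko against WT in CD4+ T cells, and 1 rose and 6 fell in CD8+ T cells. The gene that rose was Pik3r2, a regulatory subunit of PI3K (log2 fold change 1.36 in CD4+ and 1.65 in CD8+ T cells). Pik3cd, the lymphocyte catalytic subunit of PI3K, fell by 0.83 in both subsets (adjusted p = 0.0245 and 0.00604 in edgeR). Of 19 genes of TRAF and NF-kB signaling, 0 rose and 2 fell in each subset, namely Traf1, an adaptor of TNF receptors (-0.87 and -0.63), and Nfkbie, an inhibitor of NF-kB (-1.02 and -0.84). Among all genes, 5.65% (CD4+) and 8.21% (CD8+) fell, and 7.21% and 9.01% rose. The median log2 fold change against WT was -0.346 in each subset for the first list, and -0.445 (CD4+) and -0.359 (CD8+) for the second, beside -0.0108 and -0.000618 over all genes tested. The second list depended on the replicate. Its median within replicate 1 was -0.595 (CD4+) and -0.555 (CD8+), with 19 of 19 genes lower, and within replicate 2 it was -0.392 and -0.103, with 16 and 12 of 19 lower. Its summed level was 8144 and 3639 CPM in CD4+ WT, 3806 and 2988 in CD4+ STAT3ko PD-1ko, 6083 and 2370 in CD8+ WT, and 2834 and 2494 in CD8+ STAT3ko PD-1ko. Tnfaip3, an inhibitor of NF-kB signaling, was its most abundant gene in every replicate 1 library. For the first list the medians within a replicate ran from -0.474 to -0.322.

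Of 10 tested genes for other costimulatory receptors and TNF family ligands, 0 rose in either subset and 1 (CD4+) or 4 (CD8+) fell in STAT3ko PD-1ko against WT, where 5.65% and 8.21% of all genes fell and 7.21% and 9.01% rose. Cd2, an adhesion and costimulatory receptor, fell in both, by 0.53 (adjusted p = 0.045) and 0.69 (adjusted p = 0.00979 in edgeR), and Tnfrsf14, the receptor HVEM, fell by 0.87 in CD8+ T cells (adjusted p = 0.0325). Of 6 negative regulators of costimulation, read against the same shares, Itch, a ubiquitin ligase, fell in both subsets (-0.59 and -0.54), and Cblb, another, rose by 0.40 in CD8+ T cells (adjusted p = 0.0492). Ctla4, the inhibitory receptor of the same B7 ligands, was not called, and its gene lies between Cd28 and Icos on chromosome 1, 135665 bases from the first and 62081 bases from the second. None of these lists had a gene called for STAT3ko against WT, where 0.334% (CD4+) and 0.0583% (CD8+) of all genes were.

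Markers of other cells were read in the same libraries, because regulatory T cells carry much Tnfrsf4, Tnfrsf18, Tnfrsf9, and Tnfrsf1b. Foxp3, which defines regulatory T cells, had 20.96 and 30.7 CPM in WT, 16.3 and 25.1 in STAT3ko, and 3.38 and 3.42 in STAT3ko PD-1ko CD4+ T cells, a 7.49-fold fall against WT (log2 SE 0.31, adjusted p = 0.00395 in edgeR). It fell by 1.19 on the log2 scale in CD8+ T cells (SE 0.32, adjusted p = 0.0458). Of the 7 markers of the list, 6 were tested, and Foxp3 and Ikzf2 fell in CD4+ T cells against WT while 0 rose, where 5.65% of all genes fell and 7.21% rose. Against STAT3ko, Foxp3, Ikzf2, and Lrrc32 fell and Il2ra, the IL-2 receptor alpha chain that activated T cells also carry, rose by 0.83 in CD4+ T cells (adjusted p = 0.0263 in edgeR), where 5.03% of all genes fell and 6.05% rose. In CD8+ T cells Foxp3 fell (log2 fold change -1.52) and Il2ra rose (0.71) against STAT3ko, where 8.05% of all genes fell and 8.76% rose. The summed level of the list was 654 and 596 CPM in WT and 650 and 465 in STAT3ko PD-1ko CD4+ T cells, and 600 and 490 against 733 and 563 CPM in CD8+ T cells. Its most abundant gene was Nrp1 or Il2ra in every library, and Gpr83 was at 0 to 3 counts. The part of regulatory T cells in the changes of the 10 genes was not tested.

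Some markers of other lineages were at 0 and others were not. Ms4a1 (B cells), Klra8 (NK cells), and Siglech (dendritic cells) had 0 counts in all 12 libraries. The dendritic cell list was almost all Itgax, which fell in STAT3ko PD-1ko against WT, with log2 fold changes of -3.61 (CD4+) and -3.97 (CD8+), and in STAT3ko CD4+ T cells (-1.30). The monocyte and macrophage list was led by Itgam, which fell by 2.41 and 3.21 in STAT3ko PD-1ko, or by Cd68, which fell by 0.71 in CD8+ T cells (all called in edgeR). The dendritic cell list summed to 71.1 and 63.1 CPM in WT and 5.84 and 7.43 in STAT3ko PD-1ko CD4+ T cells, and to 393 and 363 against 28.4 and 21.7 CPM in CD8+ T cells. The monocyte and macrophage list summed to 56.2 and 66.9 against 20.99 and 17.99 CPM, and to 97.8 and 98.3 against 25.3 and 25.5 CPM. Both integrins also occur on activated T cells, and Adgre1, Lyz2, Csf1r, and Cd14 stayed at or under 1.31 CPM in every library. The hepatocyte list summed to at most 3.35 CPM, led by Trf. Of the B cell list, Cd79b, at 1.39 to 2.26 CPM in CD4+ and 5.10 to 14.5 CPM in CD8+ libraries, was the 1 gene tested, and it fell by 1.18 in STAT3ko PD-1ko CD8+ T cells. The NK cell list summed to 14.2 to 26.5 CPM in CD4+ and 29.96 to 85.95 CPM in CD8+ libraries, led by Klrb1c or Eomes. Eomes, also a T cell factor, rose in CD4+ (log2 fold change 1.40) and Klrb1c fell in CD8+ T cells (-1.62) in STAT3ko PD-1ko against WT. The endothelial list was almost all Pecam1, which leukocytes share, with 110 to 198 CPM and no call between genotypes. Among 7 genes of T cell identity, Cd4 fell in CD4+ (-0.52), and Cd8a (-1.09), Cd8b1 (-0.87), Cd3d (-0.67), and Cd247 (-0.64) fell in CD8+ T cells in STAT3ko PD-1ko against WT. Among all genes, 5.65% (CD4+) and 8.21% (CD8+) fell in that comparison, and 7.21% and 9.01% rose. The part of these markers in the changes of the 10 costimulatory genes was not tested.

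Position and co-variation were described last. Of the 10 genes, 6 lie on chromosome 4 of mm10, namely Tnfrsf4, Tnfrsf18, Tnfrsf9, Tnfrsf25, Tnfrsf1b, and Tnfsf8. Tnfrsf4 (156013695 to 156016589) and Tnfrsf18 (156026322 to 156028894) are neighbours on the plus strand, 9732 bases apart, and Tnfrsf4 but not Tnfrsf18 was called in CD8+ T cells. Tnfrsf25 spans 152115934 to 152120119 on the plus strand and Tnfsf8 63832824 to 63861284 on the minus strand. Cd28 (60746388 to 60773359) and Icos (60977914 to 61000321) lie on chromosome 1, and Pdcd1 lies 33037983 bases from Icos on that chromosome. Cd27 overlaps E130112N10Rik in the annotation, and whether reads were counted by strand is not given in the sources used here.

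Over the 12 libraries, with each subset set to its own mean, Tnfrsf25 and Tnfsf8 varied together (Pearson r 0.928), and Tnfrsf9 varied against both (r -0.877 and -0.767). These values carry the genotype differences above, and libraries of 1 pool share their mice. The genes most like Tnfrsf25 among genes whose log2 CPM averaged 3 or more were Syt11 (r 0.984) and Tmem87b (0.97), and those most like Tnfsf8 were Pik3c2a (0.979) and Klk8 (0.978). For Tnfrsf9 they were Ddx39 (0.964) and Ctps (0.962), and for Tnfrsf4 Ero1l (0.911) and Akap11 (0.879). Cd28 was closest to Fosb (0.992) and Tagap (0.99), Icos to Ptpn12 (0.961) and Ubl3 (0.955), and Cd40lg to Arl15 (0.875) and Camk4 (0.873). Cd27 was closest to Klf3 (0.974) and Arhgef18 (0.973), Tnfrsf1b to Notch1 (0.958) and Irf2bpl (0.949), and Tnfrsf18 to Malt1 (0.916) and Exoc6 (0.909). These correlations are descriptions without a test, chosen from all genes for their size.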

How the data were processed

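Liver CD4+ and CD8+ donor T cells of 3 genotypes were measured by RNA-Seq, with 2 pooled libraries per group. Single-end reads of 51 bases had been mapped to mm10 by STAR, and HTSeq-count had assigned them to RefSeq genes. The authors deposited these raw counts per gene, not normalized, beside RPKM values of their own, which were used here only as alternatives. RPKM levels in the text were computed from the TMM-scaled counts and the exon length. Labels and methods name different library kits, and whether counting used strand is not given in the sources used here. The 10 genes and the gene lists were chosen with earlier results of these data known.

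The tests used edgeR 4.0.16, with limma 3.58.1 and DESeq2 1.42.0 for alternatives, under R 4.3.3, and the figures used matplotlib 3.10.9 under Python 3.11.15. After the filter on low counts (filterByExpr, at least 10 in the smaller group and 15 in total) and TMM scaling, each gene was fitted by quasi-likelihood, with Benjamini-Hochberg adjustment over all genes and a threshold of 0.05. Genotypes were compared in the 6 libraries of a subset (3 residual degrees of freedom), and subsets and interactions in all 12. Printed CPM are scaled over 12 libraries, and SE is the log2 fold change divided by the root of the F statistic. The scripts were tested on simulated data. With 2 libraries against 2, an exact permutation test cannot go below p = 0.333, so none is given. The study combined replicate experiments for these cells, but which library came from which is not given in the sources used here, and p-values measure the spread between these pools. Replicates differed by more than counting noise.

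CD8+ and CD4+ libraries of the same genotype and number were taken as pairs, since the study states that CD8+ cells came from the same livers. Their deviations from the group means correlated at 0.629 (WT), 0.625 (STAT3ko), and 0.75 (STAT3ko PD-1ko) over 12334 genes. From each other list, up to 4 genes with the largest log2 fold change among those called were to be named per comparison, and Stat3 and Pdcd1 in every library. For each of the 10 genes, the 2 genes with the highest Pearson r were named. Genes named outside this rule (Ctla4, and markers other than those called) were chosen after their values were seen. Alternatives were DESeq2, RLE scaling, library totals, filters of at least 1 count or of 10 counts in every library, a replicate block, limma on log2(RPKM + 1) and log2(RPKM + 0.1), the 4 libraries compared, all 12 libraries, and leaving out each library. Values of some single genes are not reported here.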

Additional observations from a re-analysis of the deposited data

Results flagged for a closer look

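Tnfrsf4 and Cd40lg were flagged because their libraries moved apart in opposite directions in the subsets, with no overlap between the groups compared in either. For STAT3ko PD-1ko against WT, groups did not overlap for 59.2% (CD4+) and 59.7% (CD8+) of all genes. For STAT3ko against WT these shares were 38.2% and 43.6%. The share of all genes that moved apart in opposite directions was not counted. For Tnfrsf4, both STAT3ko PD-1ko libraries were below both WT libraries in CD4+ and above them in CD8+ T cells, and the log2 fold change was 1.43 higher in CD8+ T cells (adjusted p = 0.252 in edgeR's quasi-likelihood test, 0.00488 with the pool block). For Cd40lg the same held for STAT3ko PD-1ko against WT, with a difference of 1.27 (adjusted p = 0.235, and 0.0249 with the pool block), and for STAT3ko against WT, with a difference of 0.67 (adjusted p = 1 in edgeR, and 0.577 with the pool block). The CD8+ values of Cd40lg rest on 57 to 73 counts per library, and their rises of 0.25 and 0.13 on the log2 scale did not pass the test (SE 0.26 in each).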

How the results depend on the processing

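With 2 pools a group, a gene that missed the threshold may still differ, and depth limits the low genes, such as Tnfrsf25 with 10 and 11 counts in STAT3ko PD-1ko CD8+ T cells. The numbers of the 10 genes called were as in the report, or within 1.5 times of it, under the other alternatives, apart from the following. Whether the replicate number pairs the genotypes is not given in the sources used here, though the deviations of replicate 1 correlated at 0.213 to 0.725 between CD4+ and at 0.0464 to 0.733 between CD8+ genotypes. With that replicate block, 1 gene was called for STAT3ko against WT in CD4+ T cells (Icos) and 7 for STAT3ko PD-1ko against STAT3ko in each subset, with 7 against WT in each. Cd28 was among those 7 in all of these comparisons. The interaction of STAT3ko PD-1ko against WT gave 2 genes (Cd40lg and Tnfrsf4) with the replicate block, the pool block, or DESeq2, and 1 (Tnfrsf4) with all genes of at least 1 count. That of STAT3ko PD-1ko against STAT3ko gave 1 (Tnfrsf4) with the pool block. DESeq2 called 1 gene (Icos) for STAT3ko against WT in CD8+ T cells. For CD8+ against CD4+, the pool block gave 9 in STAT3ko PD-1ko, and the 4 libraries compared gave 4 in STAT3ko. All genes called for STAT3ko against WT in CD4+ T cells numbered 303 with the replicate block, 271 with DESeq2, 165 with all genes of at least 1 count, 164 with all 12 libraries, and 1 with the 4 compared, against 40. In CD8+ T cells they numbered 218 with DESeq2, 66 with all genes of at least 1 count, 20 with 12 libraries, 3 with limma on log2(RPKM + 1), and 0 with the 4 compared, against 7. With the replicate block they were 3104 and 3105 for STAT3ko PD-1ko against WT and STAT3ko in CD4+ T cells, and 2965 and 2932 in CD8+ T cells. The cause of these shifts was not tested.

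Leaving out 1 library, where a lone sample is assumed to vary like the other groups, gave 1 to 5 genes for STAT3ko PD-1ko against WT in each subset, 0 to 3 (CD4+) and 0 to 5 (CD8+) against STAT3ko, and 5 to 8, 4 to 8, and 3 to 4 for CD8+ against CD4+ in WT, STAT3ko, and STAT3ko PD-1ko. Directions turned only for values that were not called. Under library totals alone, Tnfrsf18 in STAT3ko PD-1ko CD8+ T cells was 0.00092 against WT. Without single libraries, log2 fold changes for STAT3ko against WT ran in CD4+ T cells from -0.58 to 0.61 (Cd28), -0.34 to 0.13 (Tnfrsf18), and -0.24 to 0.037 (Tnfrsf1b), and in CD8+ T cells from -0.55 to 0.79 (Cd28), -0.32 to 0.11 (Tnfrsf9), and -0.045 to 0.23 (Tnfrsf18). For STAT3ko PD-1ko they ran from -0.30 to 0.079 (Cd27, CD4+) and -0.22 to 0.062 (Tnfrsf18, CD8+) against WT, and from -0.15 to 0.32 (Tnfrsf4, CD4+) and -0.022 to 0.22 (Cd40lg, CD8+) against STAT3ko. The interaction of Tnfrsf4 for STAT3ko against WT ran from -0.0012 to 0.53. For CD8+ against CD4+ T cells they ran from -1.17 to 0.0028 (Cd28, STAT3ko) and -0.059 to 0.16 (Tnfrsf1b, STAT3ko PD-1ko).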
